A study of Homo sapiens with 8 samples.

Results

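Peaks of the tumour suppressor p53 that lie within 500 kb of an autosome end were described in 293T cells. A peak belonged here if it started below position 500000, or ended within 500 kb of the standard hg19 length of its chromosome. Chromosomes 13, 14, 15, 21 and 22 counted with their long-arm end only, which left 39 ends, 17 of short arms (p) and 22 of long arms (q). The rule uses position alone and no measured value. It took 1650 of the 97582 peaks in the 4 peak lists: 808 of 46658 and 291 of 16642 for Dox replicates 1 and 2, and 203 of 11304 and 348 of 22978 for PBS replicates 1 and 2. The 293T line, derived from human embryonic kidney, expresses the SV40 large T antigen. That viral protein binds p53, and all groups share it. Dox cells received doxorubicin, a topoisomerase poison that breaks DNA, at 0.5 µg/ml for 24 h, and PBS cells received 20 µL of the saline vehicle for the same 24 h. Chromatin from 2 samples per condition, named replicate 1 (passage 3) and replicate 2 (passage 5), was precipitated with a p53 antibody and sequenced (ChIP-seq).

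Chromosome ends carry telomeres, long arrays of the repeat TTAGGG that are bound by the shelterin proteins and keep ends from being read as DNA breaks. Inward of the telomere lie subtelomeres, patchworks of duplicated blocks and gene families that are shared between several chromosomes. p53 is activated by DNA breaks and by telomeres that have lost their protection, and it binds DNA through a motif made of 2 copies of a short palindrome. The hg19 assembly stands in for most telomeres with a run of unknown bases, so the first base that a read can match lies some way inward of the nominal end. The bases under the peaks were not read here, and no p53 motif was searched.

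The lists differ in length, and the read depth behind them is not given. Peaks had been called at a permissive p under 0.05. Those with q, the p-value corrected for the number of tests, of at most 0.05 made up 3.64%, 4.77%, 2.52% and 5.83% of autosomal peaks in Dox replicates 1 and 2 and PBS replicates 1 and 2. Fold enrichment is the height of a peak over the caller's local background, as the authors deposited it. Ends and rest were compared in fold only within a list. Folds set side by side for several lists were not scaled to each other and are a description. The 2 samples of a condition differ in passage, and nothing names them as separate cultures, so the spread behind each p-value is that between these samples.

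Peaks were denser at autosome ends than in the rest of the same chromosomes in all 4 libraries. In Dox replicate 1 the ends held 41.4 peaks per Mb, against 15.5 in the rest. In Dox replicate 2 these densities were 14.9 and 5.50 peaks per Mb. In PBS replicate 1 they were 10.4 and 3.73, and in PBS replicate 2 they were 17.8 and 7.54. The 4 ratios, 2.68, 2.71, 2.79 and 2.37, lay close together although the lists differ several-fold in length, and the Dox and PBS values overlapped. Their geometric mean was 2.63, with a two-sided exact sign-flip permutation p = 0.125 over the 4 libraries, which is the smallest p that 4 libraries allow (Benjamini-Hochberg adjusted p = 0.25 over 6 tests). Short chromosomes weigh more in the ends than in the rest. When each end was set against the rest of its own chromosome, the ratios were 2.26, 2.38, 2.44 and 2.10.

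The high density was not particular to the outer 500 kb. Between 500 kb and 1 Mb from the ends the Dox replicates 1 and 2 had 66.3 and 16.8 peaks per Mb, and the PBS replicates 13.7 and 21.1. Each of these 4 values exceeded the density of the outer 500 kb in the same library. Unknown bases were not removed from any stretch, and their part in the lower density of the outer 500 kb was not tested. The ratio of the outer 500 kb to this neighbouring stretch was 0.63, 0.89, 0.76 and 0.85 (two-sided exact sign-flip permutation p = 0.125, unadjusted, for a stretch chosen after the profile had been seen). The stretch from 1 to 2 Mb was also denser than the outer 500 kb in each library, at 60.2, 15.6, 11.9 and 20.6 peaks per Mb. From 2 to 5 Mb the density fell below that of the ends, to 37.5, 10.9, 8.32 and 14.7. From 5 to 10 Mb it was 23.5, 7.86, 5.37 and 10.3. More than 10 Mb from a counted end it was 12.7, 4.81, 3.18 and 6.68 peaks per Mb. Against the whole stretch from 500 kb to 5 Mb the mean ratio was 1.05 in place of 2.63, with 0.91 and 1.18 for the Dox libraries and 1.07 for either PBS library. Over these stretches, each taken whole, the density was highest from 500 kb to 1 Mb and lower in each stretch farther in, in all 4 libraries, and that of the outer 500 kb lay between those of 1 to 2 Mb and 2 to 5 Mb.

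**Figure D1:**
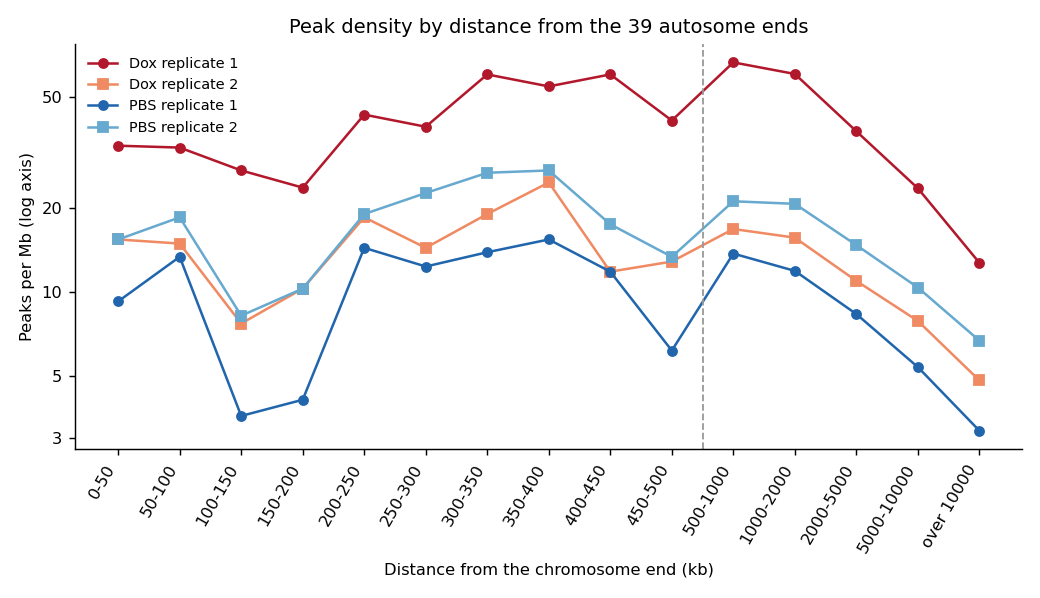
Peaks per Mb (log axis) against the distance of the peak midpoint from the nearest of the 39 autosome ends (kb), 1 line per library; the dashed line marks 500 kb. All 4 lines dip between 100 and 200 kb and are lowest more than 10000 kb from an end, where they reach 12.7, 4.81, 3.18 and 6.68.

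Within the outer 500 kb the density was uneven. All 4 libraries had a dip between 100 and 200 kb from the end. In PBS replicate 1 the bins from 100 to 150 and from 150 to 200 kb held 7 and 8 peaks, against 26 from 50 to 100 kb and 28 from 200 to 250 kb. In Dox replicate 1 the counts of the same 2 bins were 53 and 46, against 64 before and 84 after. Dox replicate 2 had 15 and 20 peaks there and PBS replicate 2 had 16 and 20, also fewer than in either neighbouring bin. The outer 100 kb, set against 100 to 500 kb, had a density ratio of 0.76, 1.02, 1.11 and 0.94 in the 4 libraries, with no common direction (mean 0.95, two-sided exact sign-flip permutation p = 0.75). Without the 5q end, the richest in sites, this mean became 1.07. With equally long lists the outer 100 kb were the denser part in all 4 libraries (mean 1.13, exact sign-flip permutation p = 0.125). Among peaks with a q of at most 0.05 they were also denser in all 4 (mean 2.80, exact sign-flip permutation p = 0.125). Of the end peaks with that q, 7 of 46 and 5 of 18 in Dox replicates 1 and 2 lay within 12 kb of an end. In PBS replicates 1 and 2 these were 5 of 10 and 5 of 26. That limit was chosen after the positions and q values there had been seen, and the part of these peaks in the ratio was not tested.

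The 39 ends differed widely. In 22 of them the density exceeded that of the rest of the chromosome in every library, in 13 it did so in some libraries, and in 4 (1q, 3p, 10p and 14q) in none. As a background, 18.3% of the 500-kb tiles of the rest stood above the mean of their chromosome's rest in all 4 libraries. Of the 22 ends, 15 were of long arms and 7 of short arms. Per Mb, long-arm ends held 47.9, 18.4, 13.6 and 22.9 peaks in Dox replicates 1 and 2 and PBS replicates 1 and 2, and short-arm ends 33.1, 10.5, 6.24 and 11.3. Against the stretch from 500 kb to 5 Mb of the same ends, 11 of 39 ends were denser in every library.

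**Figure D2:**
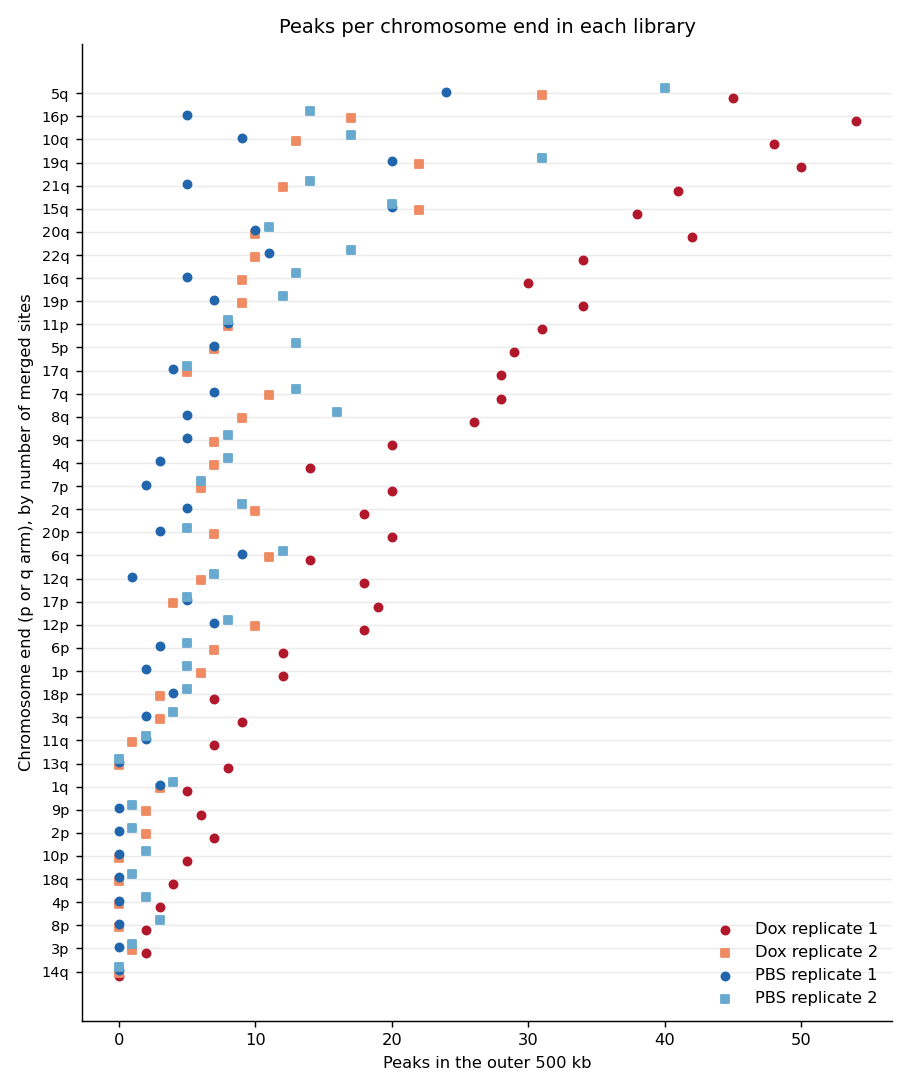
Number of peaks in the outer 500 kb of each autosome end (x axis), 1 point per library, with the ends ordered by their number of merged sites. The 5q end leads with 24 to 45 peaks per library, the 14q end has 0 in all 4, and Dox replicate 1, the longest list, lies to the right in most rows.

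The merged peaks of the 4 lists gave 996 sites at the ends, and the 6 ends with the most sites were 5q, 16p, 10q, 19q, 21q and 15q. Together these held 37.1% of the end peaks, with 34.2%, 40.2%, 40.9% and 39.1% in the single lists. The 5q end had 45 and 31 peaks in Dox (replicates 1 and 2) and 24 and 40 in PBS. These were 9.03, 17.6, 20.3 and 16.2 times the density in the rest of chromosome 5, and fewer peaks than here were found in 98.6% of that chromosome's tiles in Dox replicate 1 and in 99.7% in each other library. The 5q peaks were clustered: 54 of the 62 sites, and 10 of the 11 found in all 4 libraries, lay between 200 and 400 kb from the end. Their folds were modest, with medians of 2.90, 2.76, 2.73 and 2.53 in the 4 lists and highest values of 5.97, 5.31, 5.24 and 5.47. In the order of RefSeq genes on GRCh38, used for names only, the outermost coding genes of 5q are OR4F3, an olfactory receptor, TRIM52, RACK1, a scaffold protein of the ribosome, TRIM41 and TRIM7. Peaks were not assigned to these genes, since that table is of another build.

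The other leading ends differed in how well the libraries shared their sites. At 15q, 8 of 53 sites (15.1%) were found in all 4 libraries, and at 19q 9 of 56 (16.1%). Over all ends this share was 8.33%, and over all autosomal sites 6.04%. At 16p 1 of 61 sites (1.64%) was shared by all 4, at 21q 1 of 54 (1.85%) and at 10q 2 of 59 (3.39%). These counts are small, and the difference between ends was not tested. The ends 16p, 21q and 10q had 54, 41 and 48 peaks in Dox replicate 1 but 5, 5 and 9 in PBS replicate 1. The longest list thus gave more of their peaks than the other 3 lists together. That was not particular to them: Dox replicate 1 gave 42 of 73 peaks at 20q, and 808 of 1650 over all ends. At 15q the 4 libraries held 38, 22, 20 and 20 peaks, 5.52, 8.60, 13.98 and 6.45 times the density of the rest of chromosome 15. The outermost coding genes at 15q are the olfactory receptors OR4F15 and OR4F6. At 19q, with 50, 22, 20 and 31 peaks, the ratio to the rest of this densely covered chromosome was only 1.57, 2.12, 2.75 and 2.34. The outermost coding genes there include MZF1, a zinc finger factor, UBE2M, which attaches NEDD8 to its targets, and TRIM28, a corepressor of zinc finger proteins.

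The emptiest end was 14q, with 0 peaks in every library. Of the 10 outermost genes of chromosome 14 in the RefSeq order, 8 are variable segments of the immunoglobulin heavy chain or their pseudogenes. The rest of chromosome 14 held 10.6, 3.72, 2.60 and 5.66 peaks per Mb. The 3p end had 2, 1, 0 and 1 peaks and the 8p end 2, 0, 0 and 3. At 13q, Dox replicate 1 had 8 peaks and the other 3 libraries had none.

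Several of the strongest peaks of the ends stood near the very edge of the assembly. Within 12 kb of an end there were 16 sites on 11 of the 39 ends. Of these 16 sites, 5 were found in all 4 libraries, against 8.33% of all end sites and 6.04% of all autosomal sites. Only 1 site, named after its values were seen, on 17p at 4.06 kb with a peak of 2.62-fold in Dox replicate 2 alone, lay less than 9 kb from an end. In Dox replicate 1, 7 of the 14 peaks within 12 kb had a q of at most 0.05, as did 5 of 9 in Dox replicate 2 and 5 of 8 in either PBS library. These shares, 50%, 55.6%, 62.5% and 62.5%, compare with 4.91%, 4.61%, 2.56% and 6.18% of the end peaks farther in, and with 3.64%, 4.77%, 2.52% and 5.83% of all autosomal peaks. The limit of 12 kb was chosen after the positions and q values there had been seen, so these shares are a description and no test is given.

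**Figure D3:**
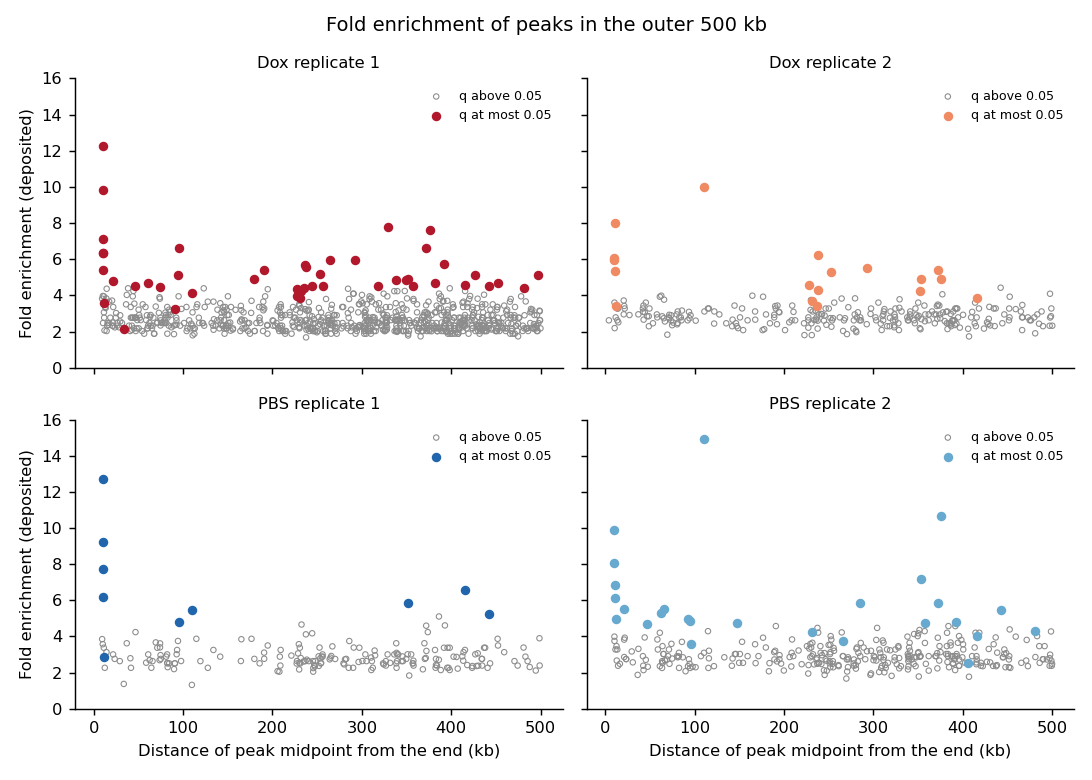
Deposited fold enrichment of each peak in the outer 500 kb against the distance of its midpoint from the end (kb), 1 panel per library; filled points have a q of at most 0.05. A column of filled points stands near 10 kb in every panel, and the highest point lies there in Dox replicate 1 (12.2-fold) and PBS replicate 1 (12.7-fold), and at 110 kb in Dox replicate 2 (9.97-fold) and PBS replicate 2 (14.9-fold).

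The leading site was on chromosome 1 from 9928 to 10596, 10.3 kb from the 1p end. Its folds were 7.14 and 5.95 for Dox (replicates 1 and 2) and 12.7 and 8.05 for PBS. The next was on chromosome 18 from 9990 to 10347, with folds of 9.84, 6.05, 6.18 and 9.89 in the same order. On chromosome 5 a site from 10256 to 11188 had 6.35-fold, 7.99-fold, 7.72-fold and 6.13-fold enrichment. A second site on 5p, from 11423 to 11875 and also named after its values were seen, had lower folds of 3.58, 3.40, 2.84 and 4.98 but −log10 q values of 12.4, 10.7, 4.43 and 25.0. On the long arm of chromosome 1, a site from 249239588 to 249240439, 10.6 kb from the end, had 12.2-fold, 5.33-fold, 9.25-fold and 6.84-fold enrichment. All 5 sites thus lay between 10.2 and 11.6 kb from an end, on both arms of chromosome 1 and on the short arms of chromosomes 5 and 18, in Dox and PBS cells alike. Other ends, named here after their values were seen, had a peak at the same distance in 2 or 3 of the libraries: 15q at 10.3 kb in the replicate 1 libraries (6.37-fold in Dox, 3.57-fold in PBS), 10q at 10.3 kb in 3 libraries (5.43-fold, 2.19-fold and 3.99-fold in Dox 1, Dox 2 and PBS 2) and 12q at 10.3 kb in the same 3 libraries (3.97-fold, 3.60-fold and 3.75-fold).

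Of the 10 leading sites, taken by their mean percentile of fold among end sites that all 4 libraries held, the first 4 were those on 1p, 18p, 5p and 1q. The fifth lay 110 kb from the 4q end, on chromosome 4 from 191043753 to 191044306. It was the outermost site of 4q in any library, and the last 100 kb of 4q held 0 sites. Where the readable bases of 4q end was not looked up, so the distance of this site from them is not known here. Its folds were 4.12 (Dox) and 5.49 (PBS) in the replicate 1 libraries and 9.97 (Dox) and 14.9 (PBS) in the replicate 2 libraries, so both replicate 2 values were above both replicate 1 values. The outermost coding genes of 4q are DUX4, FRG2 and FRG1; DUX4 lies in the D4Z4 repeat array linked to facioscapulohumeral muscular dystrophy. The other 5 sites were at 10q (372 kb from the end), 5q (442 kb), 22q (237 kb), 5p (415 kb) and 20q (452 kb), with folds between 3.87 and 6.61. Each of the 10 sites stood at or above percentile 91.8 of its list in every library. They were chosen for high folds, so these values are a description.

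**Figure D4:**
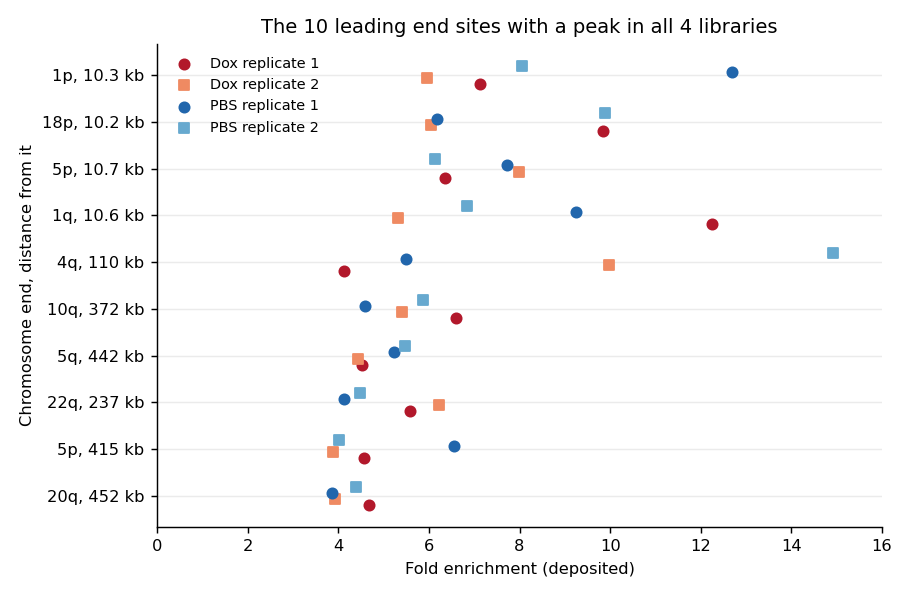
Deposited fold enrichment in each library (x axis) of the 10 leading end sites that all 4 libraries held, labelled by chromosome end and distance from it. The upper 4 rows lie within 11 kb of an end, and the 4q row spans 4.12-fold to 14.9-fold.

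Peaks with a q of at most 0.05 were more frequent at the ends than in the rest of each list. They numbered 46 of 808 end peaks in Dox replicate 1 (5.69%, 95% Wilson interval 4.30 to 7.51) against 3.60% of the rest. In Dox replicate 2 the share was 18 of 291 (6.19%, 3.95 to 9.56) against 4.75%. In PBS replicate 1 it was 10 of 203 (4.93%, 2.70 to 8.83) against 2.47%, and in PBS replicate 2 it was 26 of 348 (7.47%, 5.15 to 10.7) against 5.80%. The mean difference was 1.91 percentage points, higher at the ends in 4 of 4 libraries (two-sided exact sign-flip permutation p = 0.125, adjusted p = 0.25). It was 4.75 points with an end window of 250 kb and 0.97 with one of 1 Mb. Without the peaks within 12 kb of an end the mean difference was 0.41 percentage points, with values of 1.31 and -0.14 in Dox and 0.089 and 0.38 in PBS. That limit was set after the q values there had been seen, so leaving these peaks out lowers the share by construction, and no test is given. The Wilson intervals hold counting error alone, as if peaks were independent.

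Typical end peaks were close to those elsewhere in height and slightly wider. The median fold at ends was 2.58, 2.78, 2.76 and 2.91 in the 4 lists, in the order Dox 1 and 2, PBS 1 and 2. In the rest it was 2.47, 2.78, 2.64 and 2.85. The mean ratio of the medians was 1.03 (two-sided exact sign-flip permutation p = 0.25, adjusted p = 0.375). Median widths were 300, 304, 290 and 292.5 bp at the ends, against 282, 288, 281 and 281 bp in the rest, wider at the ends in each list. Among the 100 smallest p-values of each list, 5, 4, 3 and 5 peaks lay at an end, where 1.79%, 1.82%, 1.87% and 1.59% of the autosomal peaks lay. At the limit itself, the innermost member of each list lay 499.7, 499.9, 498.8 and 499.7 kb from its end with folds of 2.18, 2.32, 2.39 and 2.49. The first peak outside lay at 501.0, 501.1, 504.2 and 501.1 kb with folds of 2.89, 2.94, 2.27 and 2.97.

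Sites that both Dox libraries called at a q of at most 0.05 numbered 15 of the 996 end sites (1.51%), against 0.843% of all autosomal sites. In both PBS libraries 9 reached it (0.90%, against 0.398%), and in all 4 libraries 7 (0.70%, against 0.324%). Of these 7 sites, 5 are those within 12 kb of an end; the other two are the 4q site at 110 kb and the 5p site at 415 kb. That 5p site, on chromosome 5 from 415062 to 415928, had 4.57-fold, 3.88-fold, 6.55-fold and 4.02-fold enrichment in the 4 libraries. Some sites reached a q of 0.05 in 3 libraries. One on 12p, on chromosome 12 from 95128 to 95710, had 6.62-fold, 2.90-fold, 4.78-fold and 3.60-fold enrichment. On 2q, a site from 242823265 to 242823919, 376 kb from the end, had no peak in PBS replicate 1. These 2 were named after their values had been seen.

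End sites were shared between libraries somewhat more often than other sites. Of the 996 end sites, 83 (8.33%, Wilson interval 6.77 to 10.2) were found in all 4 libraries, on 28 ends, against 6.004% of the sites in the rest and 6.04% of all autosomal sites. The difference was 2.33 percentage points. It was 0.77 when a peak had to cover at least 50% of a merged site, 1.07 with an end window of 1 Mb, 1.56 against the stretch from 500 kb to 5 Mb and 1.71 without 5q. For the 3 libraries without Dox replicate 1 it was 5.13. Peaks were also denser at ends than in the rest, and the part of density in this sharing was not tested. In all 12 ordered pairs of libraries, the share of end peaks that overlapped a peak of the other list exceeded the share in the rest, by 2.07 to 13.3 percentage points. The pairs share their 4 lists and are not independent. At the other extreme, 683 end sites (68.6%) were found in 1 library, against 72.3% of all autosomal sites, and 510 (51.2%) in Dox replicate 1 alone, against 48.7%.

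**Figure D5:**
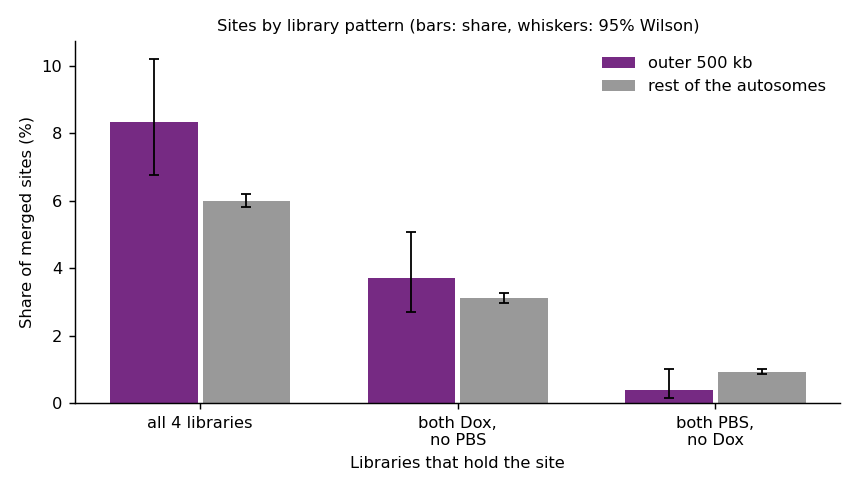
Share of merged sites (%, bars) found in all 4 libraries, in both Dox and no PBS library, or in both PBS and no Dox library, at the ends and in the rest, with 95% Wilson intervals as whiskers. The bars of the end sites stand at 8.33%, 3.71% and 0.40%, and those of the rest at 6.004%, 3.11% and 0.94%.

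Between the conditions, 37 end sites (3.71%) were held by both Dox libraries and by no PBS library, against 3.12% of all autosomal sites. Only 4 (0.40%) were held by both PBS libraries and by no Dox library, against 0.929%. Both shares lay near their backgrounds: the interval for the Dox pair was 2.71 to 5.08, and that for the PBS pair 0.16 to 1.03. Under other settings the share over all autosomal sites was not counted, so the counts that follow have no background and are a description. With equally long lists the counts were 23 and 10. They depended on each library, since the remaining list then stands for the condition: without Dox replicate 1 they were 111 and 28, without Dox replicate 2 549 and 12, without PBS replicate 1 51 and 90, and without PBS replicate 2 85 and 26. The leading site of the Dox pair was on chromosome 4 from 190861745 to 190862045, 292 kb from the 4q end, with folds of 5.98 and 5.53 in the Dox libraries. It was also the only end site that both libraries of 1 condition called at that q while the other condition had no peak. The next was on chromosome 11 from 497027 to 497996, just inside the limit of 11p, with 5.13-fold and 4.09-fold. The other leading sites of the Dox pair, on 20q, 5q and 2q, had 3.42-fold to 3.801-fold enrichment and −log10 q values under 0.1. All 4 sites of the PBS pair were weak: on 19p 71.2 kb from the end (3.38-fold and 3.28-fold), on 22q at 245 kb (2.64-fold and 3.08-fold), on 8q at 311 kb (2.64-fold and 3.65-fold) and on 19q at 339 kb (2.27-fold and 2.63-fold).

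The share of autosomal peaks that lay at ends did not separate Dox from PBS. It was 1.79% and 1.82% in Dox replicates 1 and 2, and 1.87% and 1.59% in the PBS replicates. The Dox values lay between the PBS values. The Dox mean was 1.81% ± 0.015 (SD, n = 2) and the PBS mean 1.73% ± 0.20 (SD, n = 2). Their difference, 0.078 percentage points, was smaller than the SD of the PBS libraries (exact permutation test, two-sided, p = 1, where 0.333 is the least that the design allows). Without PBS replicate 2 the difference was -0.062. The end windows make up 0.68% of the length of the autosomes.

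Peak pairs matched between replicates were also compared. In the authors' deposited table for Dox, 181 of the 8485 autosomal pairs (2.13%) lay at ends, and 53 of the 181 (29.3%) had an irreproducible discovery rate (IDR) of at most 0.05, against 27.2% of all autosomal pairs. In the authors' deposited table for PBS, 115 of 6021 pairs (1.91%) lay at ends, and 19 of the 115 (16.5%) reached that IDR, against 14.7%. Both shares of reproducible pairs were near the background, with Wilson intervals of 23.1 to 36.3 and of 10.8 to 24.4.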

How the data were processed

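Reads of the 4 ChIP libraries were processed with BWA and MACS2 on hg19, per the submitters' processing notes. The sources used here give no versions, filters or placement of reads that match several chromosome ends. The authors deposited 1 peak list per library, called separately at p under 0.05 per the peak names, with a fold enrichment (a ratio), a p-value and a q-value as −log10 for each peak. The authors also deposited 1 table of replicate pairs per condition with the IDR, a fraction, per the file headers. The 4 input samples were not analysed here.

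Distances run from a peak's midpoint to the nominal hg19 end, with lengths from pyranges 0.1.4, and densities count all bases, unknown ones included. Peaks sharing at least 1 bp were merged into sites. Coordinates are 1-based. Libraries were compared by exact sign-flip tests (each against itself) and Dox with PBS by an exact permutation test, and 6 tests were adjusted together. Intervals are Wilson's. The calculations were tested on simulated peaks. Python 3.11.15, pandas 2.3.3 and scipy 1.17.1 were used.

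Sites were named by rule: the 10 leading sites held by all 4 libraries, the 5 leading sites of each condition's pair, every site with q of at most 0.05 in 1 condition only, the sites nearest the ends, the peaks beside the 500-kb limit, and the 6 richest and the poorest ends. The members and rules were chosen with earlier results of these data known. Alternatives were other window widths (250 kb, 1 Mb), peaks with q of at most 0.05, equal list lengths, other references, leaving out each library and leaving out the richest end.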

Additional observations from a re-analysis of the deposited data

Results flagged for a closer look

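The change in the share of peaks at ends had opposite signs at the 2 passages. At passage 3 (replicate number 1) Dox minus PBS was -0.073 percentage points, and at passage 5 (number 2) it was 0.23. With 1 library per condition at each passage, this contrast was not tested.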

How the results depend on the processing

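The mean ratio of end to rest density ran from 1.05 (reference 500 kb to 5 Mb, with 0.91 in Dox replicate 1) to 3.99 (peaks with q of at most 0.05), and was 2.16 without 500-kb tiles that hold no peak; against 500 kb to 1 Mb all 4 ratios were below 1. Leaving out 1 library gave 2.58 to 2.73. The Dox minus PBS share of end peaks became -0.26 with q of at most 0.05, and ran from -0.062 to 0.22 with 1 library left out. With a replicate block it was 0.078 (exact sign-flip permutation p = 1), and likewise with a crossed pairing, added because deviations of same-numbered libraries had a correlation of -0.30 over 39 ends; 2 pairs allow no p below 0.5, so neither fit could make a call. The density ratio of the outer 100 kb to 100 to 500 kb became 2.80 with q of at most 0.05, 1.13 with equal list lengths (both above 1 in all 4 libraries) and 1.07 without 5q, and ran from 0.90 to 1.02 with 1 library left out. End sites of the Dox pair numbered 16 with 250 kb, 107 with 1 Mb, 4 with q of at most 0.05 and 23 with equal lists, and 51 to 549 with 1 library left out. Those of the PBS pair numbered 2, 12, 0 and 10 in the same order, and 12 to 90. For neither pair was the share over all autosomal sites counted under these settings. Ends above the rest in every library numbered 13 with 250 kb, 6 with q of at most 0.05 and 11 against 500 kb to 5 Mb. The surplus of q of at most 0.05 at ends was 4.75 percentage points with 250 kb and 0.97 with 1 Mb. With 1 library left out, the surplus of sites held by all the remaining libraries ran from 2.39 to 5.13 percentage points. Fewer or wider windows, fewer peaks or fewer lists change these counts by construction; the cause of the reversed ratios was not tested. Unknown bases and read depth limit all densities.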

Other observations

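The X chromosome lies outside the comparisons above. Its outer 500 kb on both arms held 37, 19, 11 and 21 peaks in Dox replicates 1 and 2 and PBS replicates 1 and 2, against 10.3, 3.88, 2.74 and 6.61 peaks per Mb in the rest of the chromosome. Since both windows together span 1 Mb, these counts are also densities per Mb. More of the peaks lay on the short arm, with 27, 14, 9 and 15, than on the long arm, with 10, 5, 2 and 6. The highest fold on the long arm was 8.16 in Dox replicate 1 and 8.60 in PBS replicate 1, against 3.61 and 3.72 in the replicate 2 libraries. On the short arm it was 6.02 and 6.35 in the replicate 1 libraries and 10.3 and 11.6 in the replicate 2 libraries, so the 2 numbers differed in opposite directions on the 2 arms.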
